A study of Caenorhabditis elegans with 12 samples.

Results

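Whole *C. elegans* lacking the microRNA miR-71 were compared with wild-type animals while both were kept on sodium azide, and the comparison was read across every gene with enough reads. The deletion group was the *mir-71(n4115)* strain MT12993 on OP50 bacterial lawns treated with azide (3 libraries), and its control was the wild-type strain N2 on the same azide lawns (3 libraries). These are 6 of the 12 libraries of the series, whose other 6 come from the same genotypes on lawns given water. By the methods, each library is a population raised from a synchronized egg pulse and collected at the L4 larval stage, so every value is an average over all tissues of many animals. The deletion was studied in 1 strain, and no source used here states the azide dose of the sequenced animals. The comparison addresses which transcripts differ between the deletion strain and wild type when both are on azide.

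miR-71 is a microRNA, a short RNA that pairs with messenger RNAs and lowers their stability or translation, and in worms it is known for roles in lifespan, starvation survival and olfactory neuron identity. Sodium azide inhibits complex IV, the last enzyme of the respiratory chain, and mitochondrial stress of this kind can switch on a transcriptional program called the mitochondrial unfolded protein response (UPRmt). Late larvae renew their cuticle in a molting cycle driven by the epidermis, and adults then turn to oocyte and yolk production. Genes of these late larval and adult programs are described first, because their lists had the lowest and some of the highest median differences of all 72 lists examined.

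The 3 deletion libraries on azide held 16828108, 21104085 and 18846564 counted reads, and the 3 wild-type libraries on azide held 20362714, 19222887 and 22741326. Of 20212 genes in the table, 15048 had enough reads to be tested. Levels are given as CPM, reads of a gene scaled to a common library total with TMM factors. TMM assumes that most genes do not differ, and CPM is not corrected for gene length. *mir-71* itself is not among the genes tested, because poly(A) libraries do not capture mature microRNAs. The transcript that can be read from that locus is *ppfr-1* (chromosome I, 9364777 to 9389982, build WBcel235), a regulatory subunit of protein phosphatase 4 with *mir-71* in an intron.

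*ppfr-1* stood at 541, 549 and 796 CPM in the deletion libraries on azide, against 107, 103 and 106 CPM in the wild-type libraries on azide. All 3 deletion libraries were far above all 3 wild-type libraries, so this transcript went with the genotype label in every library. The log2 difference was 2.58 (SE 0.135, adjusted p = 2.89e-07 by edgeR's quasi-likelihood test), and on water it was 2.1 (adjusted p = 2.89e-06). Of 42 tested genes within 100 kb of *ppfr-1*, 5 were higher (11.9%) and 13 were lower (31%) in the deletion on azide. Across all genes tested 20.1% were higher and 18.7% lower.

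**Figure D1:**
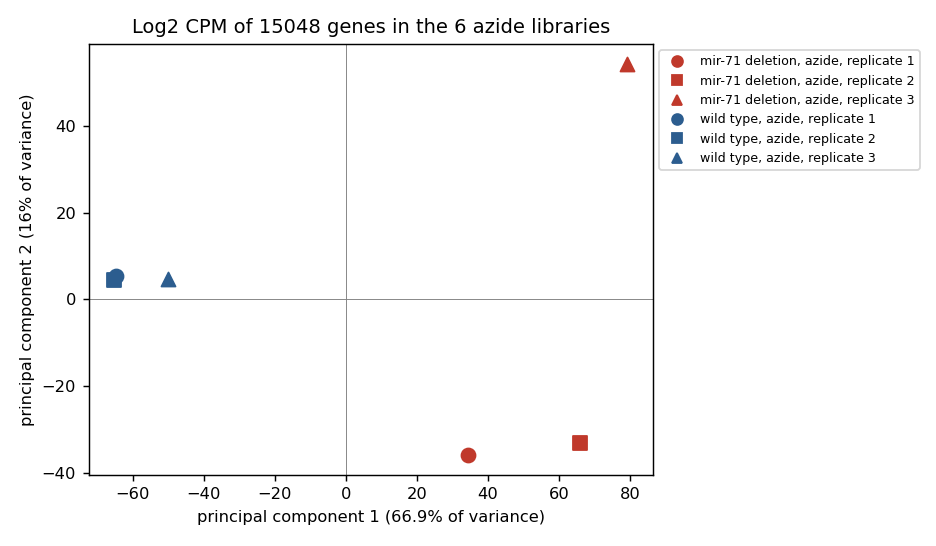
Principal components of log2 CPM over 15048 genes in the 6 azide libraries, with each point 1 library and the axes giving the share of variance of each component. The deletion libraries lie at 34.5, 66.0 and 79.3 on the first component (66.9% of the variance) and the wild-type libraries between -65.1 and -50.1, while deletion replicate 3 lies apart from both partners on the second (16%).

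The deletion libraries were separated from the wild-type libraries along the first principal component, which held 66.9% of the variance. They also differed among themselves more than the wild-type libraries did. The median SD of log2 CPM was 0.206 among the 3 deletion libraries and 0.0971 among the 3 wild-type libraries on azide. On the second component, deletion replicate 3 lay at 54.5, whereas replicates 1 and 2 lay at -36 and -33.2 and the wild-type libraries lay between 4.5 and 5.4. Deletion replicate 1 was the closest to wild type: 8.69% of genes lay more than 1 log2 unit from the wild-type mean in it, against 13.2% in replicate 2 and 18.0% in replicate 3.

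In total, 5844 of 15048 genes (38.8%) differed at an adjusted p under 0.05 by edgeR. At an unadjusted p under 0.05 the count was 7325 (48.7%). Of the genes called, 3024 (20.1% of genes tested) were higher in the deletion and 2820 (18.7%) were lower. The median log2 difference of the higher genes was 1.09, and 508 of them exceeded 2. The lower genes had a median of -0.60, and 315 lay below -2, with the lowest at -9.88. When the test asked for a difference of more than 1 log2 unit, 477 genes (3.17%) were higher and 203 (1.35%) were lower. The 2 groups of libraries did not overlap at 7659 genes (50.9%).

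The split between higher and lower genes depended on how libraries were scaled to each other. Higher genes were 51.7% of calls with TMM, 47.5% with DESeq2 size factors, 67.7% with upper-quartile factors and 73.4% when libraries were centred on ribosomal protein genes. They were 37.1% when libraries were centred on body wall muscle markers and 19.9% when they were centred on neuron markers. The median log2 difference over all genes was 0.0359 with TMM, and it was 0.166, 0.154, -0.159 and -0.345 under upper-quartile, ribosomal, muscle and neuron scaling. A gene whose difference is small therefore has no settled direction, and 1398 higher and 1052 lower calls held under each of the 5 other scalings and without each of the 6 azide libraries. Single genes described below as higher or lower are among those that held, unless their paragraph says otherwise.

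**Figure D2:**
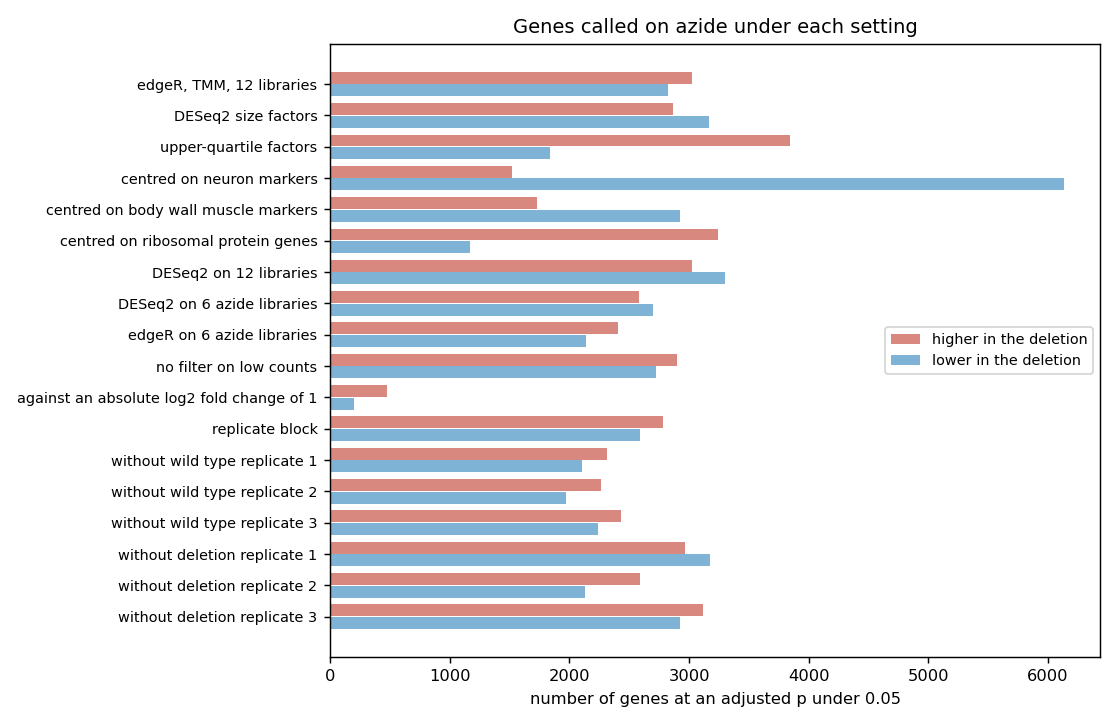
Number of genes called higher or lower in the deletion (horizontal axis, genes at adjusted p under 0.05 on azide) for each way of scaling, testing or leaving out a library (vertical axis). Higher genes ran between 477 and 3845 and lower genes between 203 and 6132, with the widest swings under the scalings and the test against a log2 difference of 1.

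Yolk genes had the lowest median difference of the 72 lists. Vitellogenins are the yolk proteins that the adult intestine makes and oocytes take up. All 6 vitellogenin genes tested were lower (background 18.7%), with a median log2 difference of -5.07 (all genes: 0.0359), and all 6 remained lower under every scaling and without any 1 library. *vit-6* stood at 823, 89.4 and 418 CPM in the deletion libraries, against 17600, 15400 and 13700 CPM in wild type. Deletion replicate 2 was the lowest and replicate 1 the highest of the deletion libraries, and none came near wild type. Its log2 difference was -5.13 (SE 0.678, adjusted p = 0.000538), and that of *vit-1*, at 124, 33.4 and 63.1 CPM against 1820, 1630 and 1360 CPM, was -4.45. Together the vitellogenins held 2130, 238 and 1050 CPM in the deletion and 44400, 38800 and 34600 CPM in wild type on azide. Vitellogenins are close relatives in sequence, so reads can be shared between copies.

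Other transcripts tied to yolk and to the adult cuticle were lower too. *vrp-1*, annotated as a vitellogenin regulating protein, stood at 14.9, 11.9 and 10.3 CPM in the deletion and 60.3, 62.6 and 64.0 CPM in wild type, a log2 difference of -2.33 (SE 0.159, adjusted p = 1.79e-06). *col-19*, the collagen used as the mark of the adult cuticle, held 161, 24.0 and 53.2 CPM in the deletion, against 2540, 2670 and 2270 CPM in wild type. The adult collagens *col-7* and *col-62* were lower by a similar amount: *col-7* stood at 4.54, 5.84 and 0.718 CPM against 171, 193 and 157 CPM (log2 -5.53). These 3 collagens are the 3 lower genes among 7 adult cuticle genes tested (42.9%, against 18.7% of all genes). Other members of the list did not share that direction, and the collagen *rol-6* was higher at 266, 393 and 340 CPM against 102, 108 and 113 CPM (log2 1.63, SE 0.130, adjusted p = 3.42e-06).

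The wild-type libraries on azide carried these adult marks although the methods place collection at L4. *col-19* averaged 2490 CPM in wild type on azide and 229 CPM in wild type on water, and vitellogenins summed to between 34600 and 44400 CPM against between 4220 and 6190 CPM. In the deletion the vitellogenin sums were 238 to 2130 CPM on azide and 2230 to 2550 CPM on water. The age of the animals in each library was not measured apart from these transcripts, so a difference in developmental progress and a direct effect of the genotype cannot be told apart in this comparison. In bulk samples of whole animals, fewer cells of a type and less RNA per cell cannot be told apart either.

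Oocyte transcripts were lower as a whole. All 30 tested genes of the oogenesis and eggshell list were lower in the deletion (background 18.7%), with a median log2 difference of -1.63, and between 26 and 30 were lower under the other scalings. *rme-2*, the yolk receptor of oocytes, stood at 212, 142 and 70.4 CPM in the deletion, against 469, 480 and 454 CPM in wild type (log2 -1.73). *perm-2*, an eggshell protein, held 145, 94.4 and 44.9 CPM against 415, 462 and 374 CPM (log2 -2.14, SE 0.347, adjusted p = 0.00126). Both genes were highest in deletion replicate 1, intermediate in replicate 2 and lowest in replicate 3, and no deletion library reached wild type. The whole list kept that order, with median differences of -1, -1.67 and -2.66 in deletion replicates 1, 2 and 3. Its sums were 4370, 2830 and 1540 CPM in the deletion on azide and 9100, 9350 and 8740 CPM in wild type on azide. On water the sums were 1160, 910 and 1420 CPM in the deletion and 1260, 1940 and 1420 CPM in wild type. *puf-5*, an oocyte RNA-binding protein, and the oocyte maturation gene *oma-2* had log2 differences of -1.91 and -1.76.

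Cell division and germline genes were lower too, by smaller amounts. Of 40 cell cycle and DNA replication genes, 34 were lower and 0 higher (85% and 0%, against 18.7% and 20.1% of all genes). Their median was -0.61, and at least 18 were lower under any scaling. The cyclin B gene *cyb-3* stood at 204, 120 and 88.7 CPM in the deletion and 349, 372 and 333 CPM in wild type (log2 -1.35, SE 0.259, adjusted p = 0.00256). Of 21 germline regulators, 14 were lower (66.7%, or 9 genes when centred on ribosomal protein genes) and 0 higher, with a median of -0.51. Among them *gld-3*, a translational regulator of germ cells, held 93.2, 72.7 and 51.3 CPM against 149, 145 and 143 CPM. Meiosis genes were 18 of 32 lower (56.2%) and 0 higher, and that count was 4 to 29 over the scalings. Without wild-type replicates 1, 2 and 3 in turn it was 10, 10 and 11. Without deletion replicate 3 it was 12.

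Few sperm genes were lower. Of 48 spermatogenesis genes tested, 11 were higher and 2 lower (22.9% and 4.17%, against 20.1% and 18.7% of all genes), with a median of 0.18 that turned to -0.17 when libraries were centred on neuron markers. *fer-1*, needed for sperm membrane fusion, stood at 22.5, 38.2 and 28.6 CPM in the deletion, against 13.4, 12.5 and 11.6 CPM in wild type (log2 1.25, SE 0.214, adjusted p = 0.000896). *fog-3*, which directs germ cells to the sperm fate, held 6.79, 6.33 and 11.3 CPM against 1.64, 1.77 and 1.5 CPM (log2 2.31). Deletion replicate 3 carried little of the late sperm product: summed major sperm protein transcripts were 2420, 2250 and 641 CPM in deletion replicates 1, 2 and 3, against 2340, 2530 and 2040 CPM in wild type. Without that library 23 spermatogenesis genes were higher. Without wild-type replicate 1 the count was 6, without wild-type replicate 3 or deletion replicate 2 it was 5, and without deletion replicate 1 it was 7.

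The molting program moved the other way. Of 25 molting cycle genes tested, 24 were higher in the deletion and 0 lower (background 20.1% higher), with a median log2 difference of 1.52, and 22 to 24 were higher under the other scalings. *noah-2*, an apical matrix protein of the epidermis, stood at 469, 523 and 449 CPM in the deletion and 75.3, 95.3 and 87.4 CPM in wild type. Every deletion library was well above every wild-type library, and the deletion libraries lay close together. The log2 difference was 2.48 (SE 0.251, adjusted p = 4.55e-05). *mlt-11*, a protease inhibitor of the molt, had a log2 difference of 2.43 (adjusted p = 0.000539). The exception was *mlt-7*, a peroxidase that cross-links cuticle, at 34.7, 34.2 and 92.1 CPM in the deletion and 55.9, 59.0 and 45.9 CPM in wild type, where the groups overlapped. Summed over the list, molting transcripts held 4230, 5990 and 4490 CPM in the deletion, against 1330, 1340 and 1420 CPM in wild type on azide. On water the sums were 5860, 6640 and 6960 CPM in the deletion and 6630, 8280 and 6830 CPM in wild type.

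**Figure D3:**
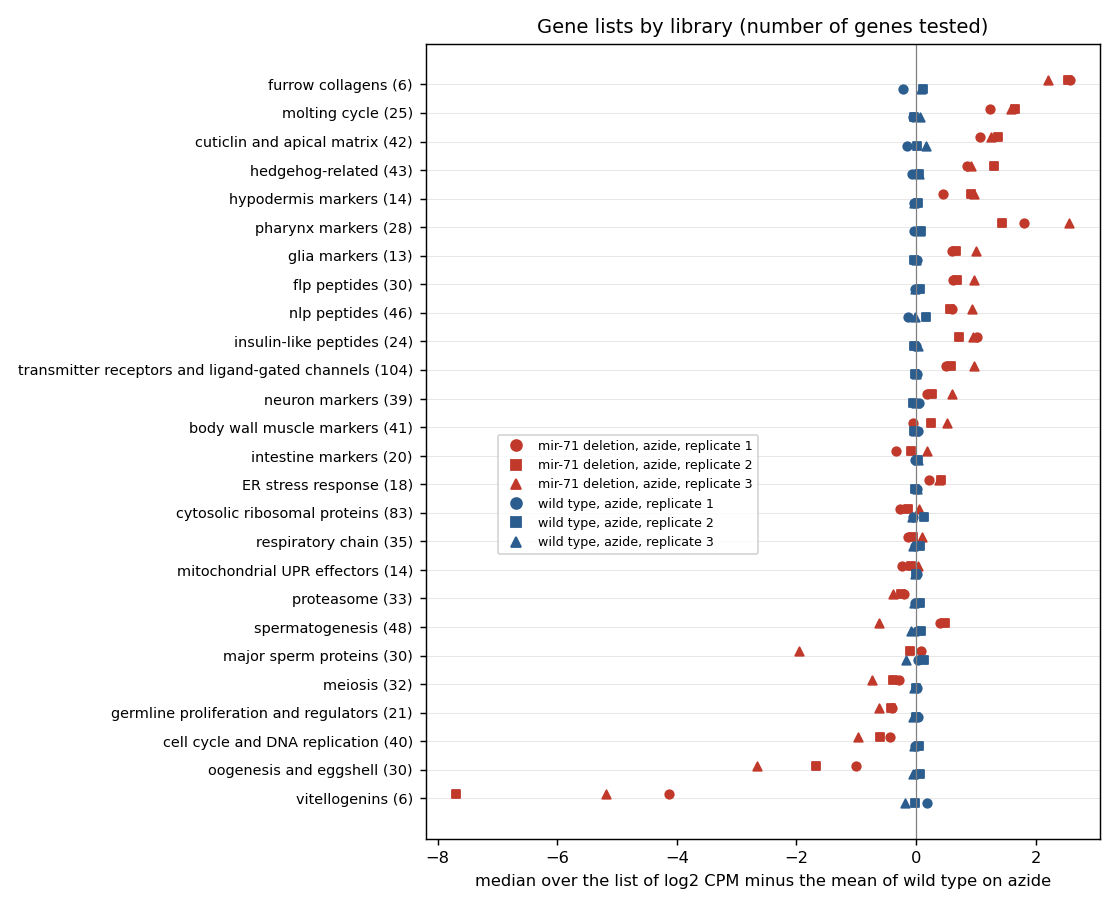
Median log2 difference from the wild-type azide mean (horizontal axis) for 26 gene lists (vertical axis), with a point for each of the 6 azide libraries. Vitellogenins and oogenesis genes lie below 0 in all 3 deletion libraries, molting, furrow collagen and pharynx genes lie above 0 in all 3, and major sperm proteins are far lower in deletion replicate 3 than in its partners.

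The furrow collagens, which shape the annular furrows of the cuticle and are made early in each molt, were higher throughout. All 6 were called (background 20.1% higher) under every scaling and without any 1 library, with a median of 2.43. *dpy-3* stood at 159, 178 and 143 CPM in the deletion and 24.2, 29.8 and 27.6 CPM in wild type (log2 2.56, SE 0.399, adjusted p = 0.00111). *dpy-7* held 189, 181 and 144 CPM against 26.6, 33.9 and 34.7 CPM (log2 2.44). Cuticle collagens as a family split. Of 148 tested (177 in the table), 46 were higher and 39 lower (31.1% and 26.4%, all genes: 20.1% and 18.7%). The median of 0.19 turned to -0.20 under neuron centring and to -0.02 under muscle centring. Collagens that fell included *col-80*, at 210, 91.6 and 210 CPM against 2710, 2650 and 2400 CPM (log2 -3.93), and *col-96*, at 4.84, 2.42 and 2.67 CPM against 67.5, 65.1 and 61.4 CPM (log2 -4.29).

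Matrix, protease and signaling families of the epidermis were mostly higher. Among cuticlins and other apical matrix genes 27 of 42 were higher and 0 lower (64.3% and 0%, against 20.1% and 18.7% of all genes). Their median was 1.24, and 21 to 28 were higher under the scalings. *sym-1*, an apical matrix protein, stood at 284, 308 and 275 CPM in the deletion, against 40.7, 47.2 and 58.7 CPM in wild type (log2 2.56). Of 43 hedgehog-related genes, 21 were higher and 1 lower (48.8% and 2.33%, median 1.16), and 2 were lower without deletion replicate 3. *wrt-10* held 189, 186 and 134 CPM against 23.4, 34.4 and 40.4 CPM (log2 2.37, SE 0.398, adjusted p = 0.00161). Of 27 patched-related genes, 17 were higher and 3 lower (63% and 11.1%). *ptr-10* held 22, 20.6 and 18.7 CPM against 2.51, 3.76 and 4.24 CPM, while *ptc-1*, which acts in the germ line, was lower at 212, 202 and 176 CPM against 353, 321 and 335 CPM (log2 -0.77). Astacin metalloproteases had 19 of 34 higher (55.9%) and 4 lower (11.8%), or 8 lower under neuron centring. Among them *nas-15* had a log2 difference of 3.28.

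Several named epidermal genes varied little between deletion libraries. *eff-1*, the fusogen that joins epidermal cells, stood at 16, 18.2 and 19.2 CPM in the deletion and 5.32, 4.80 and 5.21 CPM in wild type (log2 1.80, SE 0.129, adjusted p = 1.98e-06). *acn-1*, an ACE-like protein needed for molting, held 197, 283 and 196 CPM against 64.4, 58.5 and 70.4 CPM (log2 1.81, SE 0.141, adjusted p = 3.17e-06). *phy-2*, a prolyl hydroxylase that modifies collagen, held 110, 122 and 88.4 CPM against 42.0, 40.2 and 41.5 CPM (log2 1.37, SE 0.119, adjusted p = 6.17e-06). In each of the 3 genes the lowest deletion library lay above the highest wild-type library. Of 14 hypodermis markers, 9 were higher and 2 lower (64.3% and 14.3%, against 20.1% and 18.7% of all genes), with a median of 0.92. The 2 lower markers were *egl-18*, a GATA factor of the seam cells, with a log2 difference of -0.92, and the collagen *col-12*, with -1.13.

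**Figure D4:**
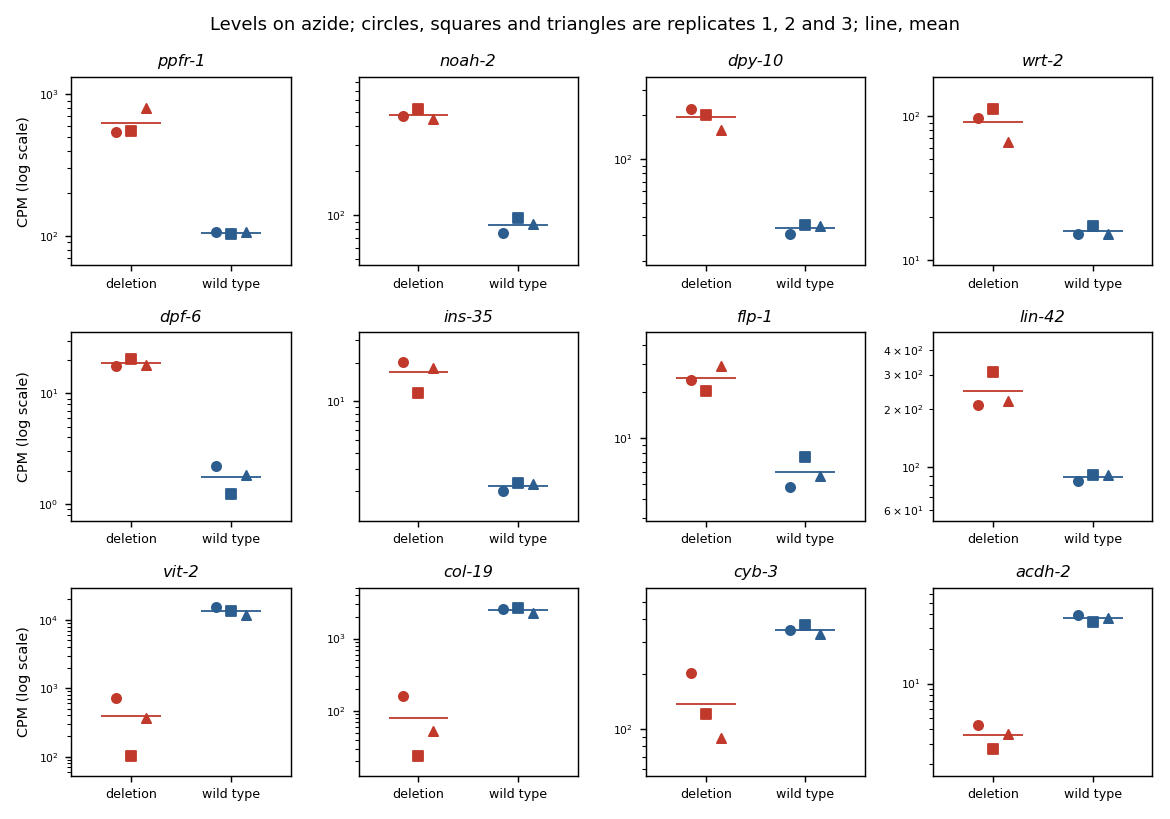
CPM of 12 genes (vertical axes, log scale) in the deletion libraries and the wild-type libraries on azide, 1 point per library. The 2 groups do not overlap in any of the 12 panels, which show genes chosen for display. Across all genes tested, 50.9% have no overlap. The deletion points of *vit-2* and *col-19* are spread far more widely than those of *noah-2* or *dpf-6*.

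Heterochronic genes order the larval stages, and of 16 tested 5 were higher and 3 lower, against 20.1% and 18.7% of all genes (median 0.34, and -0.08 under neuron centring, and below 0 without deletion replicate 3). Without deletion replicate 1, 8 were higher. *lin-42*, the worm's Period homolog, which oscillates with the molts, stood at 208, 310 and 219 CPM in the deletion and 84.3, 90.9 and 90.3 CPM in wild type (log2 1.47, SE 0.179, adjusted p = 8.36e-05). *lin-29*, the transcription factor of the larva-to-adult switch, held 29.0, 30.3 and 30.7 CPM against 16.3, 11.9 and 16.7 CPM, and its cofactor *mab-10* held 59.4, 71.0 and 41.7 CPM against 27.1, 28.6 and 26.8 CPM. Their log2 differences were 1.00 (adjusted p = 0.00021) and 1.06 (adjusted p = 0.000875). *lin-41*, a repressor of *lin-29* and a gene of oocytes, was lower at 113, 106 and 109 CPM against 243, 223 and 222 CPM (log2 -1.07, SE 0.161, adjusted p = 0.000348).

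Pharynx genes were higher, most of all in deletion replicate 3. Of 28 pharynx markers tested, 23 were higher and 0 lower (82.1% and 0%, against 20.1% and 18.7% of all genes). Their median log2 difference was 2.08, and 17 to 23 were higher under the scalings. Without any 1 of the wild-type libraries 15 were higher. Summed pharynx markers held 1040, 1230 and 1910 CPM in the deletion on azide and 404, 381 and 401 CPM in wild type on azide. On water the sums were 2020, 1440 and 1920 CPM in the deletion and 1510, 1210 and 1420 CPM in wild type. *myo-2*, the pharyngeal myosin, stood at 126, 163 and 299 CPM in the deletion and 37.9, 34.2 and 28.5 CPM in wild type (log2 2.55, SE 0.392, adjusted p = 0.00102). The pharyngeal troponin *tnt-4* held 42.2, 41.5 and 77.4 CPM against 8.08, 9.33 and 7.37 CPM (log2 2.70). Replicate 3 was the highest deletion library for both genes, and its list median was 2.55, against 1.80 and 1.43 in replicates 1 and 2. The *abu* genes of the list, which encode proteins of the pharyngeal cuticle, were highest in that library: *abu-8* stood at 25, 13.2 and 131 CPM against 5.37, 6.79 and 6.76 CPM, and its call (adjusted p = 0.0402) was lost under neuron, muscle and ribosomal centring, and also without deletion replicate 3 (0.211) or without wild-type replicate 1, 2 or 3 (adjusted p = 0.11, 0.0946 and 0.0985 in edgeR).

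Other tissues had smaller medians than the pharynx. Of 41 body wall muscle markers, 12 were higher and 2 lower (29.3% and 4.88%, against 20.1% and 18.7% of all genes). Their median of 0.25 turned to -0.16 under neuron centring. Without wild-type replicate 2 or without deletion replicate 3 the higher count was 3, and without wild-type replicate 3 it was 7. *egl-19*, the muscle calcium channel, held 27, 43.5 and 50 CPM in the deletion and 22.8, 20.8 and 22.1 CPM in wild type (log2 0.88). Of 20 intestine markers, 2 were higher and 2 lower (10% each). Their median of -0.06 turned positive under upper-quartile and ribosomal scaling and without deletion replicate 1. Under neuron centring 13 were lower and under muscle centring 7, and 8 were lower without deletion replicate 3. Without wild-type replicate 1, 1 was higher. That list holds no vitellogenin, and its summed level was 7010, 8640 and 10200 CPM in the deletion and 10400, 10900 and 10400 CPM in wild type. Among 13 glia markers 8 were higher and 0 lower (61.5% and 0%), with a median of 0.75. *daf-6*, which shapes the glial channel of sense organs, held 16.7, 21.2 and 14.9 CPM against 6.40, 5.41 and 7.68 CPM (log2 1.43).

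Many neuropeptide genes were higher in the deletion. The study singled out neuropeptide and insulin-like genes from these libraries, so their counts are not independent evidence of a direction. Of 30 FMRFamide-like peptide (*flp*) genes tested, of 31 in the table, 18 were higher and 1 lower (background 20.1% and 18.7%), with a median of 0.79. Between 13 and 21 were higher under the scalings and 17 to 19 without any 1 library. *flp-1*, a peptide gene of the AVK interneurons, stood at 23.6, 20.2 and 29.5 CPM in the deletion, against 4.76, 7.51 and 5.61 CPM in wild type (log2 2.04, SE 0.204, adjusted p = 1.77e-05). *flp-3* held 15.4, 13.4 and 16.7 CPM against 3.94, 4.47 and 4.11 CPM (log2 1.86). Of 46 other neuropeptide (*nlp*) genes, 18 were higher and 3 lower (median 0.67), with 1 to 7 lower over the scalings, 0 lower without wild-type replicate 2 and 1 without deletion replicate 2. *nlp-16* stood at 16.4, 16.8 and 19.8 CPM against 3.84, 5.69 and 3.84 CPM (log2 1.99, SE 0.186, adjusted p = 1.05e-05). The fall of *flp-28* (log2 -0.43, adjusted p = 0.0123) was lost with upper-quartile factors (0.0517) and under ribosomal centring (0.184).

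Insulin-like peptides were higher as well. These peptides act on the insulin receptor DAF-2. Of 24 tested, of 40 in the table, 14 were higher and 2 lower (58.3% and 8.33%, against 20.1% and 18.7% of all genes). The median was 1.01, and 6 were higher under neuron centring, 7 under muscle centring and 9 without deletion replicate 1. The 2 lower calls dropped to 0 without wild-type replicate 1 or 2 or deletion replicate 3, and to 1 without wild-type replicate 3 or deletion replicate 2. *ins-35* stood at 20.4, 11.7 and 18.3 CPM in the deletion and 2, 2.32 and 2.3 CPM in wild type (log2 2.92, SE 0.309, adjusted p = 2.67e-05). *ins-27* held 19.3, 18.5 and 17.1 CPM against 6.34, 4.58 and 5.34 CPM (log2 1.75, SE 0.162, adjusted p = 9.39e-06), and *daf-28* held 5.89, 6.68 and 8.31 CPM against 2.71, 2.65 and 2.91 CPM (log2 1.33). Downstream of the receptor 0 of 11 pathway genes were higher and 3 were lower (0% and 27.3%, all genes: 20.1% and 18.7%). Their median was -0.24, and 2 to 8 were lower over the scalings.

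The machinery that makes and releases peptides had a smaller median difference than the peptide genes. Of 17 peptide processing and dense-core vesicle genes, 9 were higher and 1 lower (52.9% and 5.88%, all genes: 20.1% and 18.7%). Their median was 0.46, and 2 were higher under neuron centring and 5 without wild-type replicate 1 or without deletion replicate 3. *cpd-1*, a carboxypeptidase, stood at 46.9, 47.2 and 44.6 CPM in the deletion and 24.9, 19.8 and 23.9 CPM in wild type (log2 1.01, SE 0.134, adjusted p = 0.000128). *unc-31*, the CAPS protein needed for dense-core vesicle release, held 6.04, 8.30 and 11.9 CPM against 4.91, 4.09 and 4.95 CPM. Its groups did not overlap, and its call (log2 0.91, SE 0.230, adjusted p = 0.00771) was lost under neuron centring (adjusted p = 0.0507 in edgeR). Neuropeptide receptors had 15 of 82 higher and 3 lower (18.3% and 3.66%, against 20.1% and 18.7% of all genes), with a median of 0.52. Their higher share was near that of all genes and their lower share was below it. Under neuron and muscle centring 5 and 7 were higher, and without deletion replicate 3 the count was 9.

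General neuronal markers had a smaller median again. Of 39 neuron markers, 17 were higher and 5 lower (43.6% and 12.8%, against 20.1% and 18.7% of all genes). Their median was 0.43, and 5 to 22 were higher under the scalings. Without wild-type replicates 1 and 2 and without deletion replicate 3, 11, 10 and 8 were higher. The 5 lower calls dropped to 3 without wild-type replicate 1 or deletion replicate 2 and to 2 without wild-type replicate 2 or 3. *unc-10*, the active-zone protein RIM, held 11.8, 15.2 and 21.3 CPM in the deletion, against 8.13, 6.30 and 7.90 CPM in wild type (log2 1.11, SE 0.208, adjusted p = 0.00139). The sum over the neuron markers overlapped between groups, at 2180, 2470 and 2750 CPM against 2350, 2290 and 2280 CPM. Of 104 transmitter receptors and ligand-gated channels, 39 were higher and 1 lower (37.5% and 0.962%), and 15 to 46 were higher under the scalings. *lgc-27*, a ligand-gated channel, stood at 34.3, 34.7 and 39.2 CPM against 6.91, 8.84 and 7.90 CPM (log2 2.19, SE 0.152, adjusted p = 1.79e-06). *tdc-1*, which makes tyramine in neurons and in gonadal sheath cells, was lower at 62.9, 34.9 and 22.9 CPM against 95.8, 91.0 and 90.7 CPM (log2 -1.20, adjusted p = 0.00737).

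A list of 22 measured genes held *ppfr-1* and genes taken from the study's text, without covering every gene it mentions. In it 8 were higher and 1 lower (36.4% and 4.55%, against 20.1% and 18.7% of all genes). The counts were 6 higher and 5 lower without deletion replicate 3, and 4 higher and 10 lower under neuron centring. The study discusses some members from these same libraries, so the count is not independent evidence of a direction. Of the 8, *ppfr-1*, *flp-1*, *ins-27* and *ins-35* are described above. *nlp-52* stood at 0.299, 0.308 and 0.308 CPM in the deletion and 0.205, 0.0552 and 0.177 CPM in wild type, only a few reads per library, and was not called (log2 1.01, SE 0.642, adjusted p = 0.228). Of 8 genes that have been tested or cited as miR-71 targets, 3 were higher and 0 lower (37.5% and 0%, all genes: 20.1% and 18.7%). Leaving out deletion replicate 3 or any 1 of the wild-type libraries, 1 was higher. Under neuron centring 0 were higher and 3 lower, and under muscle centring 1 was higher and 2 lower. The 3 genes called higher with TMM were *unc-31*, the pharynx factor *pha-4* and the adaptor *tir-1*. *pha-4* stood at 7.94, 10.8 and 18.8 CPM in the deletion and 7.27, 7.9 and 7.29 CPM in wild type, and its call (log2 0.74, adjusted p = 0.0271) was lost under neuron and muscle centring (0.214 and 0.107) and without deletion replicate 3 (0.149) or any wild-type library (0.0613 to 0.0772). *tir-1* stood at 25.7, 31.6 and 51.5 CPM against 27.1, 20.7 and 24.9 CPM, where deletion replicate 1 lay inside the wild-type range and replicate 3 was the highest, and its call (log2 0.58, SE 0.21, adjusted p = 0.0444) was lost with DESeq2 size factors (0.0621), under neuron and muscle centring (0.445 and 0.153) and without deletion replicate 3 (0.276) or any wild-type library (0.0591 to 0.152).

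Few UPRmt effectors were called. Among 14 UPRmt effectors 0 were higher and 1 was lower, with a median of -0.1 that turned positive under upper-quartile and ribosomal scaling, and 12 were lower under neuron centring. Without wild-type replicate 3 the count was 0, and without deletion replicate 3 it was 2. *hsp-6*, the mitochondrial HSP70 used as the readout of the response, stood at 618, 786 and 795 CPM in the deletion and 960, 901 and 868 CPM in wild type. All deletion libraries were below all wild-type libraries, but the difference missed the threshold (log2 -0.31, SE 0.125, adjusted p = 0.0623). The mitochondrial chaperonin *hsp-60* held 692, 905 and 951 CPM against 1040, 994 and 935 CPM and overlapped between groups (log2 -0.22, SE 0.141, adjusted p = 0.23). Among 11 UPRmt regulators 1 was higher and 3 lower (9.09% and 27.3%, against 20.1% and 18.7% of all genes). Over the scalings 1 to 9 were lower, with 9 under neuron centring. The higher one was the histone demethylase *jmjd-3.1*, at 29.5, 41.6 and 42.4 CPM against 15.8, 13.9 and 17.9 CPM (log2 1.25, SE 0.140, adjusted p = 3.87e-05). *dve-1* and *atfs-1*, transcription factors of the response, had log2 differences of 0.19 (adjusted p = 0.414) and -0.26 (adjusted p = 0.136).

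Genes of energy metabolism and protein synthesis were seldom called higher. Of 35 respiratory chain genes 0 were higher and 6 lower (0% and 17.1%, against 20.1% and 18.7% of all genes). Their median of -0.03 turned positive under upper-quartile and ribosomal scaling and without deletion replicate 1, and 30 were lower under neuron centring. The 3 largest falls were *ucr-2.3*, *nduf-2.2* and *asb-1*, with *ucr-2.3* at 87.7, 81.4 and 62.6 CPM in the deletion and 127, 136 and 126 CPM in wild type (log2 -0.75). The call of *asb-1* was lost under ribosomal centring (adjusted p = 0.0707 in edgeR). Of 83 cytosolic ribosomal proteins 1 was higher and 4 lower, and 1 to 80 were lower over the scalings, with 80 under neuron centring and 33 under muscle centring. Without deletion replicate 3, 22 were lower, and without wild-type replicate 2, wild-type replicate 3 or deletion replicate 2 the count was 1, 2 and 1. *rpl-11.1* was the steepest of the falls, at 993, 939 and 763 CPM against 1300, 1550 and 1280 CPM (log2 -0.62, SE 0.128, adjusted p = 0.00268). Proteasome subunits had 25 of 33 lower and 0 higher with a median of -0.27, and the count ran between 2 and 32 over the scalings, and it was 15, 10 and 16 without wild-type replicates 1, 2 and 3 and 16 and 15 without deletion replicates 2 and 3.

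Chaperones of other compartments gave mixed values. Of 18 genes of the endoplasmic reticulum stress response 10 were higher and 1 lower (55.6% and 5.56%, all genes: 20.1% and 18.7%). Their median of 0.35 fell to -0.04 under neuron centring, with 3 higher. *pdi-2*, a disulfide isomerase that assembles collagen-modifying enzymes, stood at 2280, 3500 and 2810 CPM in the deletion and 1500, 1460 and 1490 CPM in wild type (log2 0.95, SE 0.152, adjusted p = 0.000479). The small heat shock gene *hsp-16.2* held 12.8, 9.75 and 11.2 CPM against 0.819, 0.884 and 1.55 CPM (log2 3.35, SE 0.278, adjusted p = 4.62e-06), and its log2 difference on water was 4.88 (adjusted p = 2.36e-06). Near-identical copies of *hsp-16* genes share reads. In contrast *hsp-110*, a cytosolic chaperone, was lower at 320, 352 and 330 CPM against 493, 466 and 455 CPM (log2 -0.50).

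The genes with the 10 smallest p-values in each direction were of several kinds. *dpf-6*, a dipeptidyl peptidase family member, stood at 17.8, 20.7 and 18.1 CPM in the deletion and 2.2, 1.22 and 1.81 CPM in wild type (log2 3.43, SE 0.182, adjusted p = 2.89e-07). *pan-1*, a leucine-rich repeat protein needed for larval growth and molting, held 90.4, 104 and 97.1 CPM against 34.7, 33.0 and 40.3 CPM (log2 1.43, SE 0.0995, adjusted p = 1.79e-06). Both were higher in every deletion library. The smallest p among falls was that of *acdh-2*, an acyl-CoA dehydrogenase of fatty acid oxidation, at 4.34, 2.72 and 3.64 CPM against 39.5, 33.8 and 36.8 CPM (log2 -3.36, SE 0.211, adjusted p = 1.24e-06). *thn-2*, a thaumatin-like gene, held 2.05, 1.93 and 1.28 CPM against 10.4, 10.1 and 8.57 CPM (log2 -2.46, SE 0.211, adjusted p = 5.93e-06).

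The largest rises at 5 CPM or more included several uncharacterized genes. *W08E12.3* stood at 11.7, 5.18 and 49 CPM in the deletion and 0.614, 0.608 and 0.839 CPM in wild type (log2 4.97, SE 0.995, adjusted p = 0.00397). *W08E12.2* held 15.7, 8.26 and 54 CPM against 0.256, 1.27 and 1.59 CPM (log2 4.62). Deletion replicate 3 was several-fold above replicates 1 and 2 for both, as it was for the collagen *col-41*, at 101, 80.8 and 995 CPM against 20, 13.6 and 20.8 CPM (log2 4.43). *mltn-3*, related to the molting gene *mlt-10*, did not share that pattern, at 5.74, 7.07 and 3.95 CPM against 0.256, 0.442 and 0.132 CPM (log2 4.36, SE 0.400, adjusted p = 8.96e-06).

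A few genes were all but absent from the deletion libraries. *Y47D7A.11*, uncharacterized, had 0, 0 and 0 reads in the deletion and 120, 111 and 106 reads in wild type, which is at least 116-fold lower against a floor of 3 counts over the group. *F26D10.13* had 1, 0 and 0 reads against 143, 126 and 26 reads, a ratio of 305 with a 95% counting interval between 54.3 and 12100. The wild-type libraries of this gene were not alike, with replicate 3 several-fold below the others. *asm-3*, a sphingomyelin phosphodiesterase, stood at 0, 0.132 and 0.0513 CPM in the deletion, against 4.14, 5.69 and 5.78 CPM in wild type. On water, *Y47D7A.11* averaged 0 CPM in the deletion and 0.0334 CPM in wild type, so wild type on azide was the only one of the 4 groups with more than a trace.

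Cuticle, yolk and sperm genes were among those with a wide spread over the deletion libraries. Of genes with at least 5 CPM, 249 (2.46%) had an SD of log2 CPM above 1 among the deletion libraries, against 11 (0.114%) among the wild-type libraries on azide. Replicate 3 was the library farthest from the others at 50.8% of genes, replicate 1 at 32.4% and replicate 2 at 16.8%. Replicate 3 was more than 1 log2 unit below both partners at 558 genes and above both at 156. Those 558 include 27 of the 27 major sperm protein genes with enough reads for this count, 19 of 32 spermatogenesis genes and 12 of 30 oogenesis genes. Collagens went both ways in it, with 22 of 126 above both partners and 17 below.

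**Figure D5:**
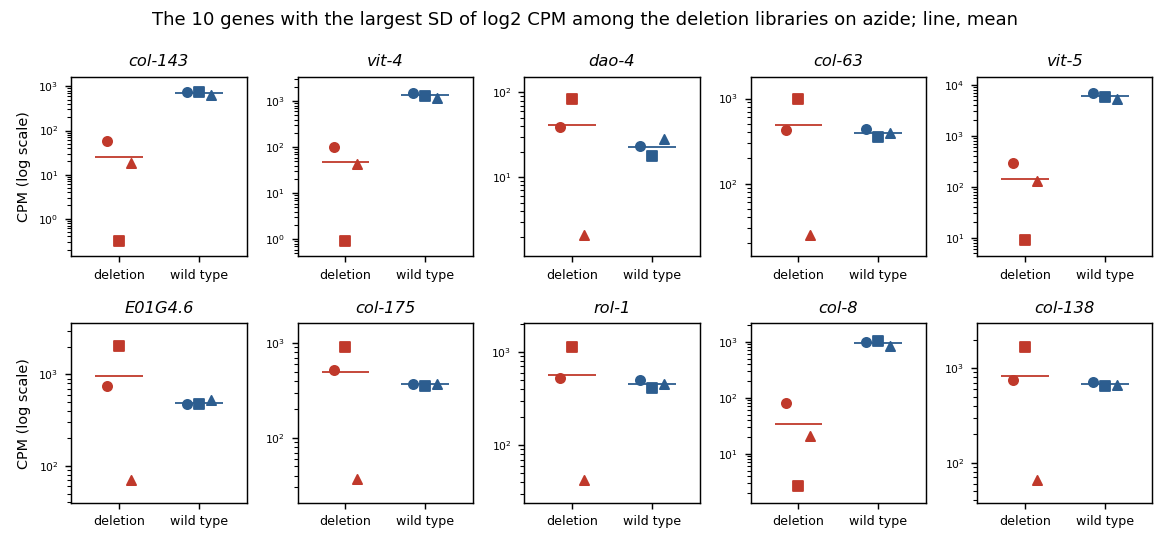
CPM (vertical axes, log scale) of the 10 genes with the largest SD of log2 CPM among the deletion libraries on azide, 1 panel per gene, with each point 1 library (circle, square and triangle for replicates 1, 2 and 3) and lines at the means. Replicate 2 is the lowest deletion library for *vit-4*, *vit-5*, *col-143* and *col-8*, and replicate 3 is the lowest for the other 6 genes, at which it falls below the wild-type libraries.

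The 10 widest genes fell into 2 patterns. In the first, replicate 2 was lowest: *col-143* stood at 56.4, 0.308 and 18.8 CPM in deletion replicates 1, 2 and 3, against 734, 732 and 648 CPM in wild type, and *vit-5* held 299, 9.01 and 129 CPM against 6770, 5860 and 5360 CPM. The 3 deletion libraries were all below wild type despite that spread. In the second, replicate 3 was lowest and replicate 2 highest. The cuticle collagen *rol-1* stood at 528, 1140 and 42.6 CPM against 504, 407 and 458 CPM, so that replicate 1 and replicate 2 were above wild type and replicate 3 far below. *E01G4.6* held 747, 2020 and 70.4 CPM against 476, 474 and 527 CPM. Neither *rol-1* (log2 0.32, SE 0.781, adjusted p = 0.768) nor *E01G4.6* (log2 0.94, SE 0.803, adjusted p = 0.38) was called. The strut collagen *bli-1* had the same shape, at 364, 630 and 52.6 CPM against 88.9, 90.8 and 93.4 CPM, and its call (adjusted p = 0.0423) was lost in several ways, among them neuron, muscle and ribosomal centring (0.0894, 0.0975 and 0.0615) and leaving out deletion replicate 1 (0.0887), deletion replicate 2 (0.156) or any wild-type library (0.0991 to 0.106).

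The 3 deletion libraries did not share the falls equally. Among genes called lower, replicate 1 was the deletion library nearest to wild type at 65.2% and replicate 3 the farthest at 62.6%, with median differences of -0.49, -0.61 and -0.75 in replicates 1, 2 and 3. Among genes called higher the medians were 0.99, 1.13 and 1.09. The furrow collagens had medians of 2.57, 2.54 and 2.2 and the molting genes of 1.23, 1.65 and 1.58. Adult cuticle genes had medians of -0.08, 1.01 and -3.44.

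Level and chromosome went with the direction of change. Among the 3762 genes with the lowest mean CPM, 22.2% were higher and 7.28% lower, and among the 3762 with the highest mean CPM 11.6% were higher and 31% lower. On the X chromosome, which carries few genes of the germ line, 623 of 2157 genes tested (28.9%) were higher and 242 (11.2%) lower, with a median of 0.24 that turned to -0.16 under neuron centring. On chromosome I 16.2% were higher and 22.5% lower. The X had the largest share of higher genes of the 6 chromosomes under all 5 other scalings, at 15.4% to 34.8%.

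The same genotype difference was much smaller on water, where 226 genes (1.5%) were called. The difference between the genotype effects on azide and on water, tested as an interaction, passed at 1575 genes (10.5%), of which 1003 (6.67%) were positive and 572 (3.8%) negative. That count ran between 824, without wild-type replicate 2, and 2883, without deletion replicate 1, when single azide libraries were left out. Molting genes had 20 of 25 and furrow collagens 6 of 6 positive interactions, vitellogenins 4 of 6 and oogenesis genes 7 of 30 negative ones. For *noah-2* the interaction was 3.07 on the log2 scale (adjusted p = 0.000387), with means of 381 CPM in the deletion and 574 CPM in wild type on water. For *ppfr-1* it was 0.48 (adjusted p = 0.101).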

How the data were processed

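RNA from whole animals was sequenced as poly(A) libraries, and genotype, treatment and replicate of each library were taken from the sample labels. Per the submitters' processing notes, the authors trimmed reads with Cutadapt 1.9.1, aligned them to WBcel235 with HISAT2 2.0.1 and counted them per gene with HTSeq 0.6.1. The strand setting of that step is not stated, so where genes overlap on opposite strands their reads may be mixed. The deposited raw counts served every test. The deposited FPKM values are those counts divided by coding length and library total by the authors, and were not used for any value here. Of 20212 rows, 0 lacked a gene name, and the raw count columns of all 12 libraries were used.

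All 12 libraries were fitted in edgeR 4.0.16 (R 4.3.3, limma 3.58.1) with 4 group means, TMM, filtering at 10 counts and a total of 15, and robust quasi-likelihood tests. Tests were two-sided, p was adjusted by Benjamini-Hochberg over 15048 genes, and 0.05 was the threshold. Log2 CPM used a prior count of 1. SE is the absolute log2 difference over the root of F. The labels do not say that replicates came from separate cultures, whereas the methods call them biological. Counting intervals and floors cover counting error only.

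The comparison, the 72 gene lists (general knowledge of the animal, and genes taken from the study's text) and the alternatives were chosen with earlier results of these data known. Lists are described by counts and medians, with no test. Named genes are *ppfr-1* and those taken from the study's text, the 10 largest rises and falls with at least 5 CPM and no overlap, the 10 smallest p each way, up to 3 rises and falls per list, the 10 widest deletion spreads, and tissue or stage markers. Scripts were tested on simulated data. Alternatives were 5 scalings, DESeq2 1.42.0 on 12 or on 6 libraries, edgeR on 6 libraries, no filter, a test against a log2 difference of 1, a replicate block and leaving out each azide library. Seed matches of miR-71 were not analysed here. Some single-gene values are not reported here.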

Additional observations from a re-analysis of the deposited data

Results flagged for a closer look

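The genotype difference on azide was not the same as the genotype difference on water at 1575 genes by the interaction test in edgeR (adjusted p under 0.05), or 10.5% of the genes tested. Of the 22 listed genes made up of *ppfr-1* and genes taken from the study's text, 3 passed that test. The interaction of *flp-1* was 1.17 on the log2 scale (adjusted p = 0.0184), from log2 differences of 2.04 on azide and 0.87 on water. That of *ins-27* was 1.34 (adjusted p = 0.00213), from 1.75 and 0.41. That of *ins-35* was 2.75 (adjusted p = 0.0013), from 2.92 and 0.17. For *ins-35* the means on water were 7.37 CPM in the deletion and 6.51 CPM in wild type, so its azide levels lay above both water groups in the deletion and below both in wild type. No group had 4 or more libraries, so single libraries could not be tested for lying apart.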

How the results depend on the processing

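Higher genes were 1523 and 1728 under centring on neuron and on muscle markers and 477 against a log2 difference of 1. Lower genes were 6132 under neuron centring, 1834 with upper-quartile factors, 1172 under ribosomal centring and 203 against a log2 difference of 1. Interactions were 849 under muscle centring, 874 under ribosomal centring and 2532 with DESeq2 on 12 libraries. Without single azide libraries higher genes were 2265 to 3113, lower genes 1975 to 3171 and interactions 824 to 2883. Interactions moved over 1.5 times without wild-type replicates 1 (877), 2 (824) and 3 (970) and without deletion replicates 1 (2883) and 3 (2561). The causes were not tested. Of 338 named genes, 4 that were called with TMM changed sign, all under neuron centring: *atg-4.1* (-0.06), *ctl-1* (-0.05), *mrpl-46* (-0.11) and *pho-1* (-0.05). The 338 leave out tissue or stage markers named only to describe the libraries, so counts of named genes do not cover those markers. Sign changes of genes called under neither setting were not counted. Calls of named genes were lost for 3 to 45 genes under the scalings and DESeq2, 37 with edgeR on 6 libraries, 9 without a filter, 222 against a log2 difference of 1 and 10 to 49 without single libraries.

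Same-numbered azide libraries did not deviate together (correlations of -0.03 to 0.082), so the numbers were not taken to pair them. A replicate block gave 2783 higher, 2586 lower and 1225 interactions, and 13 named genes lost their call. The 3 libraries a side limit what small differences can show, and low counts limit genes such as *nlp-52*. Seed matches of miR-71, planned as a description, were not run.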

Other observations

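Other gene families held calls in both directions. Of 148 C-type lectins tested, of 243 in the table, 28 were higher and 48 lower (18.9% and 32.4%, against 20.1% and 18.7% of all genes), with 14 to 35 higher and 38 to 62 lower over the scalings. *clec-180* stood at 127, 147 and 75.7 CPM in the deletion on azide and 17.3, 21.3 and 24.3 CPM in wild type on azide (log2 2.47, adjusted p = 6.49e-05 by edgeR), whereas *clec-197* held 2.2, 0 and 0 CPM against 26.2, 20.8 and 7.37 CPM. The metalloprotease *nas-17* had the same shape, at 0.599, 0.0439 and 0 CPM against 7.88, 5.52 and 2.69 CPM, with wild-type replicate 3 the lowest of its group. Among cytochrome P450 genes 8 of 60 were higher and 10 lower (13.3% and 16.7%, both below the shares of all genes), and 6 to 20 were lower over the scalings. Without wild-type replicate 1 the counts were 5 and 6, and without deletion replicate 2 they were 7 and 6. *cyp-31A2* was lower at 35.5, 21 and 12.7 CPM against 54.7, 57.2 and 52.2 CPM (log2 -1.25), a gene of eggshell lipid synthesis, and *cyp-23A1* was higher at 4.89, 6.15 and 4.1 CPM against 0.767, 0.718 and 1.1 CPM (log2 2.53).

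Lipid genes gave clear single values. *lipl-6*, of the lysosomal lipase family, held 11.0, 9.84 and 10.0 CPM in the deletion and 1.43, 1.44 and 1.41 CPM in wild type (log2 2.84, SE 0.225, adjusted p = 3.42e-06). The desaturases *fat-5*, *fat-6* and *fat-7* were the 3 lower genes among 16 desaturases and elongases, 18.8% against 18.7% of all genes. Under neuron centring 8 were lower. *fat-5* stood at 26.2, 24.5 and 33.7 CPM against 54.7, 54.5 and 53.9 CPM (log2 -0.95). *epg-2*, an autophagy adaptor, was higher at 20.5, 25.3 and 34.3 CPM against 9.82, 12.5 and 9.89 CPM (log2 1.31).

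Signaling ligands also differed. Of 23 Wnt pathway genes 3 were higher and 9 lower (all genes: 20.1% and 18.7%), and 4 to 14 were lower over the scalings. The Wnt ligand *mom-2* stood at 24.5, 19.2 and 13.5 CPM in the deletion and 55.9, 53.3 and 58.6 CPM in wild type (log2 -1.55, SE 0.220, adjusted p = 0.000237), and *cwn-2*, another Wnt ligand, at 7.24, 7.47 and 8.10 CPM against 4.45, 2.54 and 2.61 CPM (log2 1.25). *daf-7*, a TGF-beta ligand made in sensory neurons, held 8.09, 7.2 and 13.2 CPM against 2.87, 3.26 and 2.43 CPM (log2 1.74, SE 0.240, adjusted p = 0.000173).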
